A study of Arabidopsis thaliana with 2 samples.

Results

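The genes described here encode stress-linked zinc finger proteins of Arabidopsis thaliana, 5 of the CCCH class and 3 of the C2H2 class, that the authors named for peaks of the DNA damage regulator SOG1. The CCCH genes were SZF1 (AT3G55980), OZF1 (AT2G19810), OZF2 (AT4G29190), OXS2 (AT2G41900) and AT5G58620, also called TZF9. The C2H2 genes were STZ (AT1G27730), ZF2 (AT3G19580) and ZFP10 (AT2G37740). They were selected on having a peak in the deposited list, so the presence of a peak at each of them is how they were chosen and not a result. These 8 genes were among 1513 genes named in the list, and their peaks were 10 of 778.

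The list came from 1 chromatin immunoprecipitation sequencing (ChIP-seq) library of whole plants aged 2 weeks, made with an anti-Myc antibody. These plants were Col-0 carrying ProSOG1:SOG1-Myc, a Myc-tagged SOG1 under the SOG1 promoter in a wild-type background, and had received 15 µM zeocin, a drug that breaks DNA, for 2 h. The question behind the series is where SOG1 sits in the genome after such damage. The other of the 2 samples, untagged Col-0 labelled mock and precipitated with the same antibody, was not analysed here, and its treatment label was followed although the protocol text attached to it speaks of zeocin. The tagged sample differs from it in genotype and in drug, so tag and drug cannot be told apart, and there is no replicate library. The plants also kept their own untagged SOG1, which the antibody does not see. Whole plants mix many cell types, so strong binding in few cells and weak binding in many cannot be told apart. Total depth is unknown, and the only counts were the 78249 reads inside peaks. The list holds no expression values, so neither the tissue label nor the response of these genes to the drug could be checked.

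SOG1 is a NAC transcription factor that the kinase ATM phosphorylates when DNA breaks, and it switches on repair and cell cycle arrest genes. Plant proteins with tandem CCCH fingers, which hold zinc through cysteines and a histidine, mostly bind RNA, and many act in salt, oxidative and hormone responses. Plant C2H2 proteins of the STZ type are DNA-binding factors that mostly repress transcription, and their genes react to cold, drought, salt and strong light.

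All values below are the authors' own for each peak. Reads are the unscaled number of reads in the peak, given with an exact Poisson 95% interval that covers counting error only. Fold enrichment is a ratio whose denominator is not stated, and the summit is read as an offset in bp from the start of the peak. Coordinates are on TAIR10. The authors' false discovery rate (FDR) was 0.1355 to 0.1503 at the CCCH peaks and 0.146 to 0.161 at the C2H2 peaks, and no peak in the list had one below 0.116. No test was made between the classes or against the rest of the list, because every measure comes from the peak calling that chose the genes.

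The salt-inducible gene SZF1, whose product is known in salt tolerance, had a peak on chromosome 3, 20775442 to 20776787, with 113 reads (93.1 to 136) over 1345 bp and a fold enrichment of 3.64. Its summit lay at 987 bp, 73.4% of the way along the peak and the most off-centre of the 10. The peak also named ESK1 (AT3G55990), a gene of xylan acetylation known for freezing tolerance, which is the next gene in order.

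OZF1 and OZF2, named for their role in oxidative stress, had short peaks with few reads. The OZF1 peak on chromosome 2, 8549889 to 8550543, held 54 reads (40.6 to 70.5) over 655 bp, at 5.55-fold. It was the smallest of the 10 in reads and in length, yet second only to the stronger ZF2 peak in fold enrichment. It also named AT2G19825, a pseudogene in the gene table. The OZF2 peak on chromosome 4, 14393202 to 14393921, held 59 reads (44.9 to 76.1) over 720 bp, at 4.46-fold, and named OZF2 alone.

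OXS2, a CCCH protein known to move into the nucleus under stress, had a peak on chromosome 2, 17489577 to 17490273, with 56 reads (42.3 to 72.7) over 697 bp. Its fold enrichment of 3.25 ranked 701 of 778, and its Decibel Score, a peak score of unstated formula, was 51.7 where the lowest in the list was 50.01. The peak thus sat near the lower edge of the list by score. It named no other gene and was the most isolated of the 10, with 131282 bp to the nearest other peak.

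AT5G58620 was the CCCH gene with the most reads, spread over a pair of peaks on chromosome 5. The left peak, 23691165 to 23692359, held 152 reads (129 to 178) over 1195 bp at 4.70-fold. The right peak, 23692486 to 23693908, held 137 reads (115 to 162) over 1422 bp at 4.91-fold. The pair lay 127 bp apart, and the summits leaned towards each other, at 66.6% of the left peak and 40.0% of the right one. Their counting intervals overlapped, so the reads did not separate one peak from the other. Both peaks named AT5G58610 as well, and the right one added AT5G58640 while passing over AT5G58630 and AT5G08870, which lie between in the gene order.

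STZ, also known as ZAT10, a repressor in cold, drought and light responses, had the widest peak of the 10 and the one with the most reads. It lay on chromosome 1, 9647674 to 9649720, with 207 reads (180 to 237) over 2046 bp. Its fold enrichment of 2.99 was nevertheless the lowest of the 10. By length it ranked 36 of 778, by reads 65, and by fold enrichment 743. Of the 65 peaks with at least as many reads, 7 had a fold enrichment as low or lower, the STZ peak included, and the median of the 65 was 6.85-fold. Of the 36 peaks at least as long, 7 were likewise as low or lower, STZ included, and their median was 4.655-fold. The other gene named was its neighbour TAF4B (AT1G27720), a subunit of the general transcription factor TFIID.

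ZF2, also called AZF2, a repressor linked to abscisic acid and salt responses, carried a pair of peaks on chromosome 3 and the highest fold enrichment among the 8 genes. The left peak, 6803050 to 6804039, held 111 reads (91.3 to 134) over 990 bp at 4.85-fold. The right peak, 6804418 to 6805692, held 154 reads (131 to 180) over 1275 bp at 6.50-fold and ranked 80 of 778 by fold enrichment. A gap of 379 bp parted them, and the summits were 1668 bp apart, against 1094 bp at AT5G58620. Each also named BUB3.1 (AT3G19590), a protein of the spindle checkpoint, so the list does not tell which of these adjacent genes goes with which peak.

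ZFP10, a protein with one C2H2 finger related to SUPERMAN, had a peak on chromosome 2, 15830698 to 15831986, with 119 reads (98.6 to 142) over 1288 bp at 3.45-fold. It named 4 genes, the most of the 10 peaks. The others were AT2G37750 and the aldo-keto reductase genes AKR4C8 (AT2G37760) and ChlAKR (AT2G37770), which act on reactive aldehydes, and the 4 follow one another in the gene order.

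**Figure D1:**
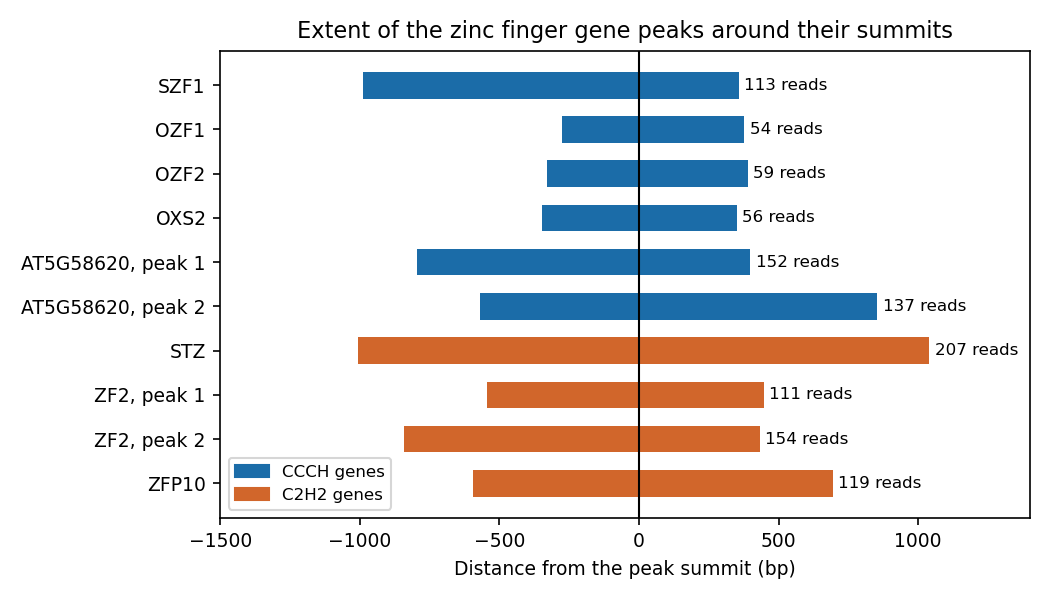
Each bar is 1 peak, drawn from its left to its right edge in bp from the summit (vertical line), with its read count at the right and the class in colour. The STZ peak is the widest at 2046 bp with 207 reads, the peaks of OZF1, OZF2 and OXS2 are the narrowest at 655 to 720 bp, and the SZF1 summit, at 73.4% of its peak, is the most off-centre for its length.

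The C2H2 peaks tended to be longer and to hold more reads than the CCCH peaks, but the ranges of the classes overlapped. The 4 C2H2 peaks held 111 to 207 reads (median 136.5) and the 6 CCCH peaks 54 to 152 (median 86). Lengths ran from 990 to 2046 bp (median 1282) and from 655 to 1422 bp (median 957.5), respectively. All 4 C2H2 peaks exceeded the list's median of 75 reads and its median length of 837 bp, and so did 3 of the 6 CCCH peaks.

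The CCCH peaks were uneven in reads and in length. OZF1, OZF2 and OXS2 held 54 to 59 reads, and the upper counting limits of these 3, at most 76.1, lay below the lower limits of the other 7 peaks, at least 91.3. The 3 were grouped by these same counts, so the gap describes them and tests nothing. Counts this low are common in the list, where the lower quartile of all 778 peaks was 62 reads. SZF1 and AT5G58620 fell among the C2H2 genes in reads and in length. Leaving out any 1 of the 3 lowered the ratio of the class medians, C2H2 over CCCH, from 1.59 to 1.21 for reads and from 1.34 to 1.07 for length. Without SZF1 or AT5G58620 the ratio rose instead, to 2.31 and 2.37 for reads. With only the strongest peak of each gene by fold enrichment, it was 2.61 for reads.

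Reads and length are not separate measures in this list. Across the 778 peaks, which share 1 library and 1 calling, Spearman's rho was 0.95 between reads and length. Per kb of peak the classes lay closer, with a median of 107 reads per kb (92.4 to 121) for C2H2 and 83.2 (80.3 to 127) for CCCH, and the ratio of medians was 1.28. The highest value among the 10 peaks, 127 reads per kb (108 to 149), belonged to the left CCCH peak at AT5G58620. All 4 C2H2 peaks and 2 of the 6 CCCH peaks were above the list's median of 88.6, although the counting intervals of STZ, ZFP10 and the right AT5G58620 peak included that median. The intervals of the CCCH peaks below it, at SZF1, OZF1, OZF2 and OXS2, included it as well.

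**Figure D2:**
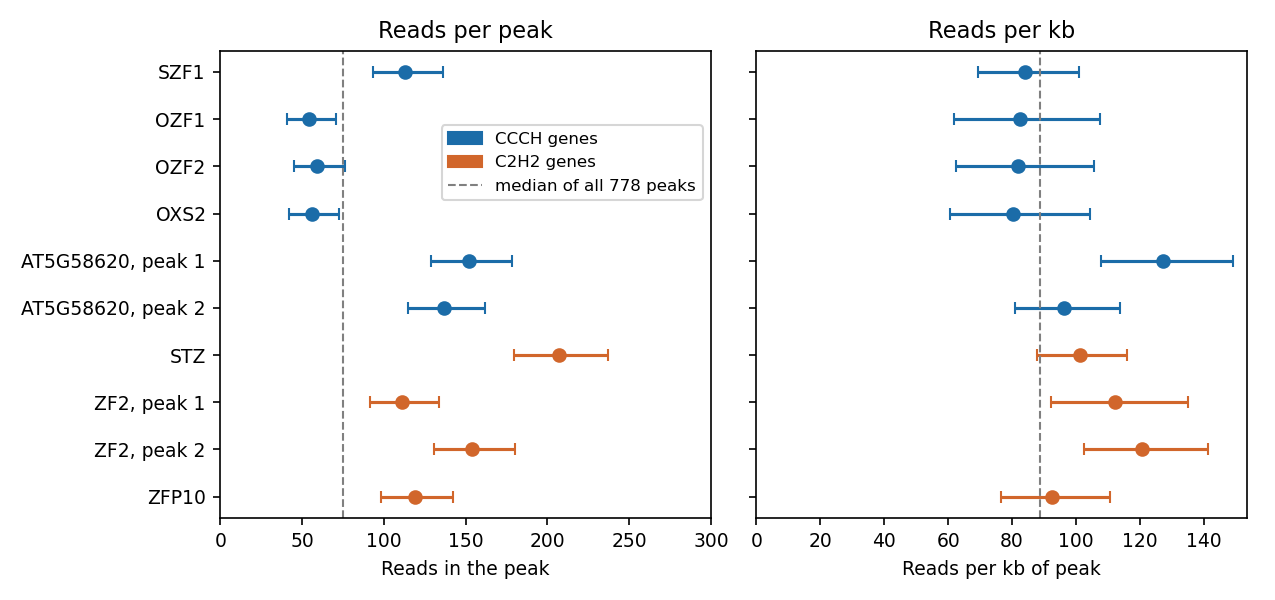
Points give the reads in each peak (left) and the reads per kb of peak (right) with exact Poisson 95% intervals, and dashed lines mark the median of all 778 peaks, 75 reads and 88.6 reads per kb. On the left, OZF1, OZF2 and OXS2 stand apart at 54 to 59 reads, and on the right most intervals overlap.

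Fold enrichment did not separate the classes. It ran from 3.25 to 5.55 (median 4.58) over the CCCH peaks and from 2.99 to 6.50 (median 4.15) over the C2H2 peaks, around the list's median of 4.33. The order of the classes turned with the summary used, since the mean of the C2H2 peaks was 1.01 times that of the CCCH peaks. The medians themselves changed order when AT5G58620, STZ or ZFP10 was left out. The best rank by fold enrichment was 80, and the highest value in the list was 23.0-fold.

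The order of the genes depended on the measure. OZF1 ranked 136 of 778 by fold enrichment and 682 by reads, whereas STZ ranked 743 and 65. SZF1 moved the same way as STZ, from 593 to 169, and ZFP10 from 649 to 153. The pairs at ZF2 and AT5G58620 stayed in the upper part of the list by fold enrichment, Decibel Score, reads and length, at ranks of 62 to 284. Across all peaks, rho between reads and fold enrichment was 0.23.

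Fold enrichment takes repeated values in this list, and 53.9% of peaks share theirs exactly with another. The value at OZF1 recurred at 8 other peaks that held 55 to 126 reads over 620 to 1168 bp. A given fold enrichment therefore does not fix the number of reads, and small differences in it between these genes carry no measured error.

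**Figure D3:**
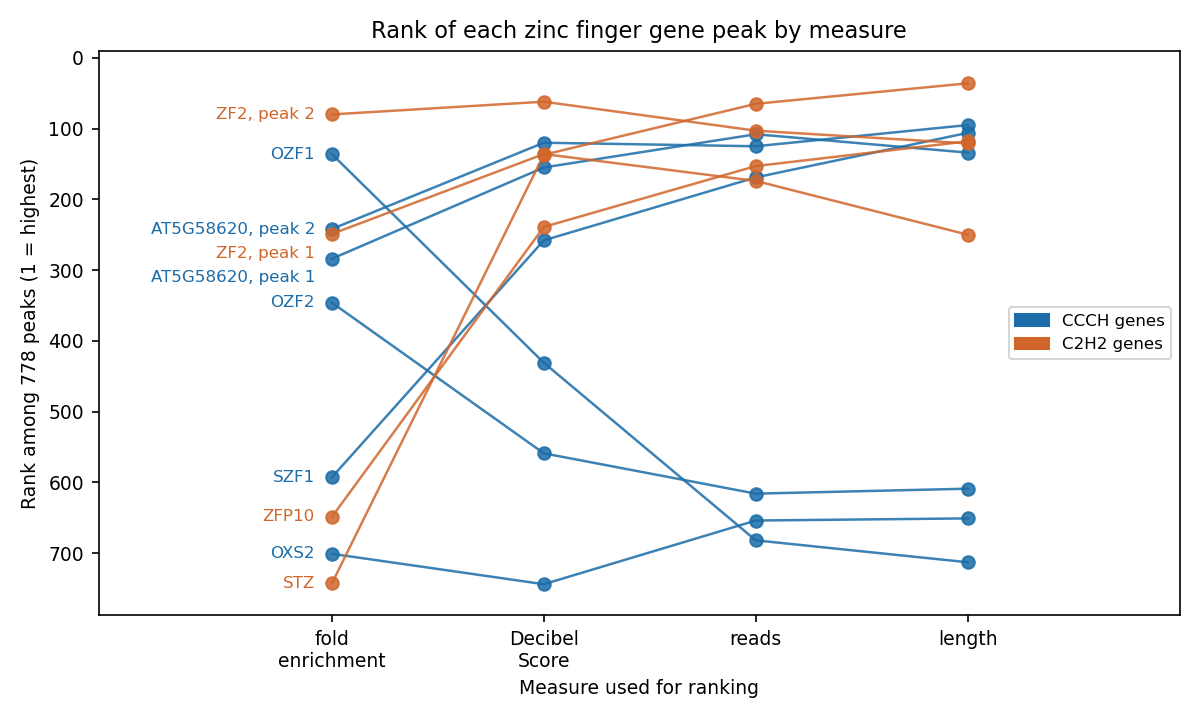
Each line follows 1 peak through its rank among 778 peaks by fold enrichment, Decibel Score, reads and length, with rank 1 the highest and the class in colour. The lines cross, STZ rising from 743 to 65 and OZF1 falling from 136 to 682 between fold enrichment and reads.

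Summits lay at 40.0 to 73.4% of the peak for CCCH genes (median 47.9) and at 46.1 to 66.1% for C2H2 genes (median 52.0), so the classes overlapped here too. In the whole list the middle 50% of peaks had summits between 43.9 and 59.0%. Of the 10 peaks, 5 fell in that range, 3 lay above it (SZF1, the left peak of AT5G58620 and the right peak of ZF2) and 2 below (OZF1 and the right peak of AT5G58620). Strand and gene edges were not set against the summits, so a lean of the summit was not tied to a gene start.

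Both classes had a median of 2 genes named per peak. Only OZF2 and OXS2, both CCCH, were named alone, and none of the 4 C2H2 peaks named a single gene. That makes 2 of 10 peaks, against 25.6% of all peaks. All peaks include 35 that name no gene and could not have been chosen here. A choice by gene name also favours peaks that name several genes. For the other 6 genes the list leaves at least 1 further gene as a possible target.

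Close neighbouring peaks occurred in both classes. Of the 10 peaks, the 4 that make up the pairs at AT5G58620 and ZF2 had another peak within 1000 bp, against 8.35% of all peaks. Both peaks of a pair entered together because both name the chosen gene. The count is therefore not like for like with the share over all peaks, and no excess can be read from it. The list held 33 such neighbouring pairs, with summits 757 to 3270 bp apart (median 1439), and 32 of them named a gene in common. The spacings at AT5G58620 and ZF2 fell on either side of that median.

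OZF1 and OZF2 also had a nearby peak that named the preceding gene. At OZF1 it lay 5426 bp to the left and named AT2G19802 and AT2G19806. It was close to the OZF1 peak in reads and length, with 56 reads over 654 bp, and had the same 5.55-fold. At OZF2 it lay 9833 bp to the left, held 110 reads at 4.57-fold and named MND1 (AT4G29170), a factor of meiotic recombination, with AT4G29180. The peaks of SZF1, STZ, ZFP10 and OXS2 had no other peak within 24034 bp, 127852 bp, 64067 bp and 131282 bp, in that order, where the median distance in the list was 36698 bp.

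Relatives of the 8 genes were read from lists of 11 tandem CCCH genes, 18 C2H2 genes of the STZ and ZAT type, which carry several fingers, and 19 C2H2 genes of the ZFP10 and SUPERMAN type, which carry a single one. Of the 27444 nuclear protein-coding genes in the gene table, 1369 (4.99%) were named for a peak. Because the 8 genes were chosen for having a peak, and the lists were drawn up around them with that known, the shares below describe the families and are no evidence of preference.

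Of the 11 tandem CCCH genes, 6 were named (54.5%), the 5 described above and TZF8 (AT5G12850). The TZF8 peak, on chromosome 5, 4053357 to 4054105, held 60 reads (45.8 to 77.2) over 749 bp at 4.86-fold. It resembled the peaks of OZF1, OZF2 and OXS2 in reads and length. NF-YA1 (AT5G12840), a subunit of a CCAAT-binding factor, and the calcium-dependent kinase gene CPK7 (AT5G12480) were named with it. The 5 without a peak were TZF1, SZF2, the seed germination regulator SOM, PEI1 and TZF5, so SZF1 had a peak in this library and its close relative SZF2 had none.

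Of the 18 C2H2 genes with several fingers, 3 were named (16.7%), STZ, ZF2 and ZAT12 (AT5G59820), a regulator in light and oxidative stress also called RHL41. The ZAT12 peak, on chromosome 5, 24102404 to 24103416, held 97 reads (78.7 to 118) over 1013 bp at 4.20-fold, and its summit stood at 67.7% of the length. The subtilase gene SBT5.4 (AT5G59810) and AT5G59830 shared it. The other 15 had no peak, among them AZF1, AZF3 and ZAT6, close relatives of ZF2 and STZ. Of the 19 with a single finger, ZFP10 was the only one named (5.26%). That share is near the background of 4.99%, but it was fixed by the choice of ZFP10 for its peak. ZFP11 and SUP were among the 18 without a peak. With the depth unknown, lack of a peak does not show lack of binding.

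**Figure D4:**
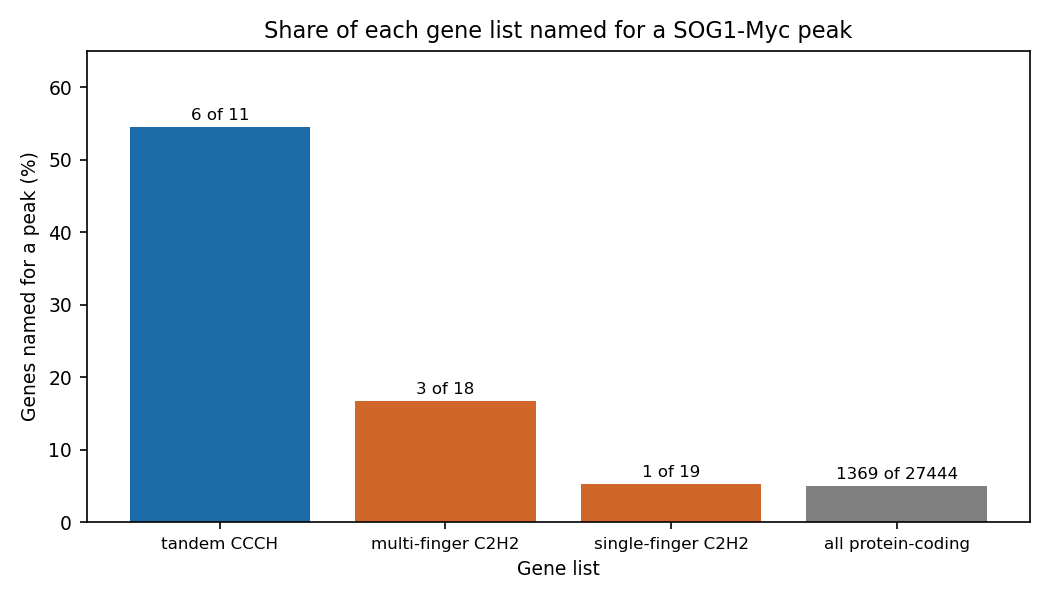
Bars give the percent of genes in each list that were named for a peak, with the counts above them, and the grey bar gives all protein-coding genes (4.99%). The tandem CCCH list stands at 54.5%, with 5 of its 6 named genes fixed by the choice of genes. The single-finger C2H2 list stands at 5.26%, with its 1 named gene fixed in the same way.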

How the data were processed

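Peaks were listed for the tagged, zeocin-treated library alone. CASAVA 1.8.2 was used and the build was TAIR10, per the submitters' processing notes; the aligner, caller, control and thresholds were not given in the sources used here. Per the file headers, the authors give each peak a read count, a fold enrichment (a ratio), a Decibel Score (a score) and an FDR (q-value), which selected no peak here. The 1645 deposited lines, 1 per peak and gene, were collapsed to 778 peaks with pandas 2.3.3. In 261 peaks the stated length is 1 bp less than the span from start to end with both ends included, so an edge can be off by 1 bp. Peaks were assigned by the locus in the longest-transcript column. A gene table of assembly TAIR10.1 gave names, classes and gene order only, and matched 1483 of 1513 named genes and all 8 members. Poisson intervals came from scipy 1.17.1; reads are not independent molecules, so they cover counting error only. The loader was tested on simulated data. The members and family lists were chosen with earlier results of these data known. Named genes are the 8 members, all genes at their peaks, adjoining peaks where close, and family genes with a peak or closely related. No sequence of the build was used, so none is printed and the planned promoter search for the SOG1 site was not run.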

Additional observations from a re-analysis of the deposited data

How the results depend on the processing

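The 5 class medians per class, their ratios, the count of members high in the list and the family counts made 19 results, recomputed in 134 ways; the ratios were added after seeing the data. Of these, 125 stayed within the spread among peaks of the class, or within 1.5 times for ratios and counts. A ratio also had to keep its side of 1. The 125 include the class medians of reads per kb, which were set against medians of reads although the unit differs. Accepting a gene named in either gene column changed nothing. With the strongest peak per gene, C2H2 over CCCH reads rose from 1.59 to 2.61, since each pair then counts as 1 peak. For fold enrichment the ratio was 0.906, became 1.01 with means, and ran from 0.703 to 1.06 when each gene was left out in turn, above 1 without AT5G58620, STZ or ZFP10. For summit position it was 1.09 and ran from 0.995 (without ZF2) to 1.15. The median genes per C2H2 peak ran from 2 to 3 and its ratio to CCCH from 1 to 1.5, the upper ends without ZF2. Among the upper 50% of peaks by fold enrichment were 4 of the 8 genes, against 5 by Decibel Score or by reads and 2 in the upper 25%, a cut that admits fewer peaks. The promoter searches were not run, for want of sequence. With 1 library, no value has a replicate error.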

Other observations

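Outside the lists, 1 further gene whose name in the gene table holds the words zinc finger was named for a peak, ZFN2 (AT2G32930), chosen after its values were seen. Genes with such a name but no peak were not counted, so no share is given. ZFN2 encodes another CCCH protein. Its peak, on chromosome 2, 13971404 to 13972189, held 87 reads (exact Poisson 95% interval 69.7 to 107) over 786 bp, or 111 reads per kb, at 5.40-fold. It named ZFN2 alone, like the peaks of OZF2 and OXS2. Its read count was above theirs over a similar length, but its counting interval overlapped both of theirs. The nearest other peak lay 221470 bp away.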
